A study of Homo sapiens with 6 samples.

Results

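CXCL8, the gene of interleukin-8, was examined together with the other ligands of the receptors CXCR1 and CXCR2 and with both receptors: CXCL1, CXCL2, CXCL3, CXCL5, CXCL6, PPBP, CXCR1 and CXCR2. Every probe set annotated to exactly 1 of these symbols was taken, which gave 14 probe sets for 9 genes, of 54613 probe sets tested and 19775 genes with a probe set of their own. The family was chosen on the difference between PC9/gef and PC9 seen on these same arrays, so its differences are given as a description, and no p is given for a member. PC9 cells come from a lung adenocarcinoma and are sensitive to gefitinib, which blocks the kinase of EGFR. PC9/gef was derived from PC9 under continuous exposure to rising concentrations of the drug and is a single resistant line, so other routes to resistance are not sampled. Both lines were grown in RPMI-1640 with fetal bovine serum, penicillin and streptomycin. Whether gefitinib was present at harvest is not given in the sources used here. Total RNA was measured on 3 PC9 and 3 PC9/gef arrays. The labels speak of biological replicates without saying whether these were separate cultures, so adjusted p-values measure only the spread between these samples, which may be technical.

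The chemokines of this family carry a glutamate-leucine-arginine motif before their first cysteines and are known for drawing neutrophils and promoting vessel growth. CXCL8 and CXCL6 bind both receptors well, whereas the other ligands act mainly through CXCR2. The receptors are coupled to inhibitory G proteins and are found mostly on neutrophils, although some tumour cells carry them. In epithelial cells the ligand genes are known to be induced by interleukin-1 and tumour necrosis factor through NF-kappaB and AP-1, and their AU-rich mRNAs are short-lived.

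The sequences before the starts of the 7 ligand genes are shown because this is where NF-kappaB is known to act, and because they show which ligands share letters there. Each line gives the 140 bases before the annotated start, 5′ to 3′ on the gene's own strand, from RefSeq on GRCh38.p14. Capitals mark GGNNTTTCC (NF-kappaB-like), TGANTCA (AP-1-like) and TATAAA (the TATA box) on either strand.
CXCL8: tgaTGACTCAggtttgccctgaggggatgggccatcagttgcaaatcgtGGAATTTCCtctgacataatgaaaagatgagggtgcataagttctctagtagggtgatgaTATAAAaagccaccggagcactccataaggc
CXCL6: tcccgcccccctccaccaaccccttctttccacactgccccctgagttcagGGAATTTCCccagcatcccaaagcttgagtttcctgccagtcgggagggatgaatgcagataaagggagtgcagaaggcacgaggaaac
CXCL1: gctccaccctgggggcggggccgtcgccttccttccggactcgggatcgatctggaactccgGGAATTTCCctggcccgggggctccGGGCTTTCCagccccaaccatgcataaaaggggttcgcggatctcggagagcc
CXCL2: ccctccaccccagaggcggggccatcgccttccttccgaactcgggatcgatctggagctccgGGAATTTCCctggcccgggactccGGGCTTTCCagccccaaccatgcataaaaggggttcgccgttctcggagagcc
CXCL3: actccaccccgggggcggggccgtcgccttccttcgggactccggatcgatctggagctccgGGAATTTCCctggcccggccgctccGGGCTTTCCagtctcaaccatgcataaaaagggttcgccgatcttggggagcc
CXCL5: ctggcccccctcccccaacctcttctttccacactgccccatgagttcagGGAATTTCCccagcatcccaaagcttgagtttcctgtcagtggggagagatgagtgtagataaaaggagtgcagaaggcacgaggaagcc
PPBP: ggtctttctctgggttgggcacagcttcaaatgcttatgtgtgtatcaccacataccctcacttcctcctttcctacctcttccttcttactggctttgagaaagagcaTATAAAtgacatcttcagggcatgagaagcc
The windows of CXCL8 (chr4:73740429-73740568), CXCL6 (chr4:73836538-73836677) and CXCL1 (chr4:73869253-73869392) lie on the plus strand of chromosome 4. Those of CXCL2 (chr4:74099196-74099335), CXCL3 (chr4:74038690-74038829), CXCL5 (chr4:73998678-73998817) and PPBP (chr4:73988191-73988330) lie on its minus strand.

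In the 250 bases before the start, 6 of the 7 ligand genes held the NF-kappaB-like letters, PPBP being the exception, and neither receptor gene held them. Of all 35116 starts in the table, 5.48% held them. The same 9 letters, GGAATTTCC, stood in all 6 genes, between positions -91 and -69 from the start. CXCL1, CXCL2 and CXCL3 each held another match, GGGCTTTCC, from -53 to -45, and 0.231% of all starts held 2 or more matches. The AP-1-like letters were found before CXCL8 alone among the 9 genes, from -137 to -131, against 6.57% of all starts. TATAAA was found before CXCL8 and PPBP, from -31 to -26 in both, against 10.7% of all starts. The motifs did not overlap each other in these windows. A match is a description of letters and not a site shown to be bound.

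The windows fell into near-copies. CXCL1 and CXCL2 were identical at 91.5% of aligned positions, CXCL1 and CXCL3 at 90.7%, and CXCL2 and CXCL3 at 87.9%. CXCL6 and CXCL5 were identical at 90.1%. CXCL8 was identical to the other 6 at 43.8% to 48.0%, and PPBP to the other 6 at 43.8% to 49.7%. Between the CXCL1, CXCL2 and CXCL3 windows and those of CXCL6 and CXCL5, identity was 49.3% to 52.3%.

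On the arrays 4 of the ligand genes, CXCL8, CXCL6, CXCL1 and CXCL2, were 2.71-fold to 3.79-fold higher in PC9/gef, as read from the brightest probe set of each. CXCL3 lay just over background, and CXCL5, PPBP and both receptors lay at background in both lines. Values are the deposited log2 values, in which a difference of 1 is a doubling. A mean of 2.65 or less, the 95th percentile of 135 olfactory receptor probe sets, was taken as background. Of the 14 probe sets, 6 lay above it in at least 1 line and 8 in neither. Levels of different probe sets are not set against each other, since probes differ in how they bind. In RNA of whole cultures, a change in the number of cells that express a gene and a change in RNA per cell cannot be told apart.

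**Figure D1:**
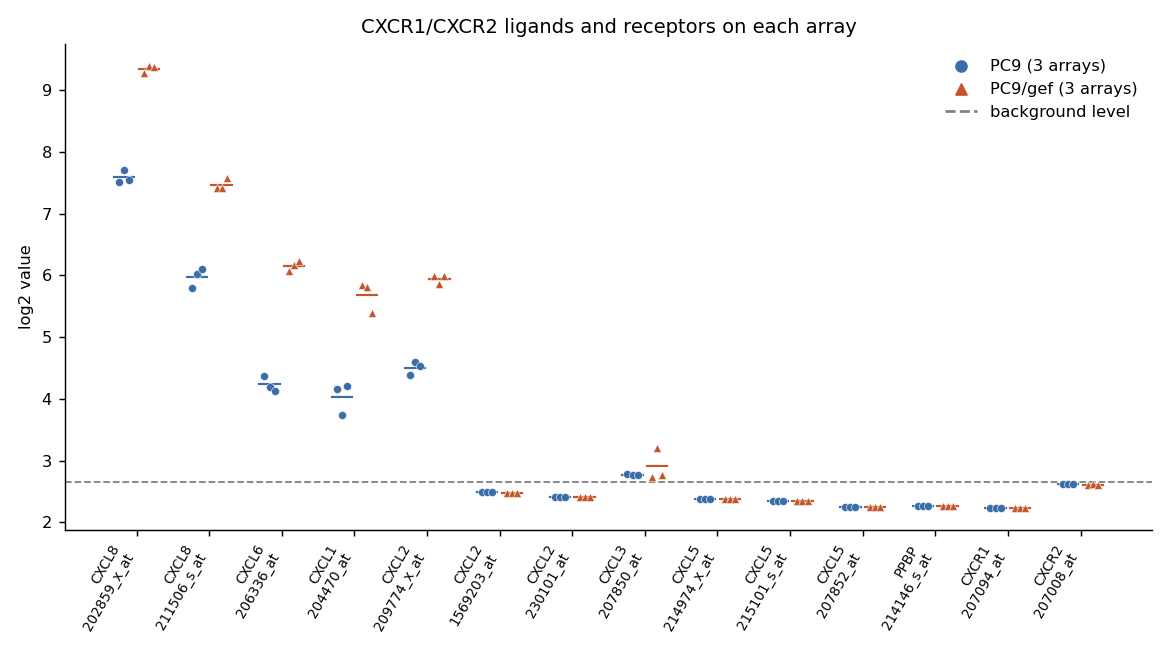
Deposited log2 value of each of the 14 probe sets on each of the 6 arrays (circles PC9, triangles PC9/gef; the short line is the mean of 3 arrays and the dashed line the background level of 2.65). The 5 probe sets on the left stand higher on all 3 PC9/gef arrays than on any PC9 array, and of the other 9 only CXCL3 lies over the dashed line.

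CXCL8, a potent attractant of neutrophils, was read from a pair of probe sets. On 202859_x_at it stood at 7.51, 7.71 and 7.55 on the PC9 arrays and at 9.28, 9.39 and 9.38 on the PC9/gef arrays. The lowest PC9/gef array was above the highest PC9 array. The means were 7.59 ± 0.107 and 9.35 ± 0.059 (SD, n = 3), a log2 difference of 1.76 (SE 0.0673) or 3.39-fold. On 211506_s_at CXCL8 stood at 5.80, 6.03 and 6.11 in PC9 and at 7.41, 7.41 and 7.57 in PC9/gef, again without overlap. The log2 difference on this probe set was 1.48, or 2.80-fold, smaller by 0.276 than on the other. The names of both probe sets mark them as able to bind more than 1 transcript, so neither reads CXCL8 with certainty alone.

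CXCL6, the other ligand that binds both receptors, lies beside CXCL8 on chromosome 4. It stood at 4.38, 4.20 and 4.13 on the PC9 arrays and at 6.07, 6.17 and 6.23 on the PC9/gef arrays. All PC9/gef arrays lay above all PC9 arrays. The log2 difference was 1.92 (SE 0.0836), or 3.79-fold, the largest of the family.

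CXCL1, a ligand of CXCR2, stood at 4.17, 3.74 and 4.21 in PC9 and at 5.85, 5.81 and 5.39 in PC9/gef. One array of each line lay about 0.3 below its line's mean: PC9 replicate 2 at -0.300 and PC9/gef replicate 3 at -0.290. The lines did not overlap, and the log2 difference was 1.65 (SE 0.200), or 3.13-fold.

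CXCL2, the close relative of CXCL1, was read from 3 probe sets that disagreed. On 209774_x_at it stood at 4.39, 4.60 and 4.53 in PC9 and at 5.98, 5.86 and 5.99 in PC9/gef, a log2 difference of 1.44 (SE 0.0708) or 2.71-fold. On 1569203_at it lay at 2.49 in PC9 and 2.48 in PC9/gef, and on 230101_at at 2.41 in both lines, all at background. Averaged over all 3, the difference was 0.478. The difference for CXCL2 thus rests on 1 probe set that can bind more than 1 transcript, and CXCL1 and CXCL3 are the near relatives whose mRNA could bind it. How much they add was not tested.

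CXCL3, the remaining member of that trio, lay just over background at 2.78, 2.76 and 2.77 in PC9 and at 2.74, 3.20 and 2.77 in PC9/gef. Only PC9/gef replicate 2 stood apart, and the other 5 arrays lay between 2.74 and 2.78. The log2 difference was 0.137 (SE 0.141), and without that array it was -0.010. CXCL3 was the member nearest below the 2-fold change that the study's methods use, and CXCL2 on 209774_x_at the nearest above it.

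CXCL5, whose start region is nearly that of CXCL6, lay at background on all 3 of its probe sets, with means of 2.25 to 2.38 in both lines. PPBP, the platelet chemokine, lay at 2.27 in PC9 and 2.26 in PC9/gef. The receptor genes were at background as well. CXCR1 had a mean of 2.24 in PC9 and in PC9/gef, and CXCR2 had means of 2.62 and 2.61. With olfactory receptor pseudogenes left out the background level was 2.61, and CXCR2 then lay just over it. Over the 8 probe sets at background, the largest difference between the lines was 0.00765 in size. Values at background are compressed in this kind of table and do not show that these mRNAs are absent. CXCL2 lay at background on 1569203_at and 230101_at but not on 209774_x_at. Whether the dim probe sets detect their mRNAs was not tested, so their values set no upper bound.

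As a count, 5 of the 14 probe sets passed an adjusted p of 0.05 in limma as higher in PC9/gef, 0 as lower and 9 not at all, beside 7.61% of all probe sets higher and 8.99% lower. The same 5 were over 2-fold higher, beside 0.95% of all probe sets. On those 5 every PC9/gef array lay above every PC9 array, beside 12.4% of all probe sets. On 4 others, of CXCL2 and CXCL5, every PC9/gef array lay below every PC9 array, beside 36.1% of all probe sets, and all 4 were at background. The family was chosen on this contrast, so nothing is read from these counts. Under limma with trend and robust moderation the count of members lower was 2, and without PC9/gef replicate 2 it was 1, all of them at background.

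The 7 ligand genes lie in 1 cluster on chromosome 4, in the order CXCL8, CXCL6, PF4V1, CXCL1, PF4, PPBP, CXCL5, CXCL3 and CXCL2. The higher ligands did not form an unbroken run. CXCL8 and CXCL6 stand side by side at one end, CXCL1 follows after PF4V1, and CXCL2 stands at the other end. The difference of CXCL2 rests on 209774_x_at, which can bind more than 1 transcript. PF4V1 and PF4, genes of the platelet factor 4 pair within the cluster, lay at background.

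Of the 12 nearest genes with a probe set on each side, 7 were higher and 6 lower at an adjusted p under 0.05 in limma, beside 14.4% and 17.1% of all genes. These shares include genes at background in both lines, 7816 of the 19766 that are not members. Above background, 2847 of those 19766 genes were higher, 2654 lower and 6449 not called. Lists with few genes at background therefore have a higher base than these shares. RASSF6, next to CXCL8, stood at 2.44, 2.77 and 2.77 in PC9 and at 3.92, 4.001 and 3.25 in PC9/gef (log2 difference 1.07, adjusted p = 0.0381 in limma). Its call was lost without any 1 array other than PC9/gef replicate 3, with adjusted p from 0.0789 to 0.117. MTHFD2L, a mitochondrial folate enzyme gene next to CXCL2, rose by 1.01 (adjusted p = 0.000805 in limma). EREG, which encodes the EGFR ligand epiregulin, rose by 0.77 (adjusted p = 0.00429 in limma), from 10.0, 10.2 and 10.2 to 11.0, 10.8 and 11.0. MOB1B, DCK, G3BP2 and SDAD1 also rose, by 0.78, 0.35, 0.21 and 0.048.

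PARM1 fell by 1.78 on the log2 scale (adjusted p = 0.000209 in limma). NPFFR2, a neuropeptide receptor gene, was at background in PC9/gef and at least 2.58-fold lower there (adjusted p = 0.00740 in limma). GRSF1 and COX18 fell by 0.45 and 0.25. ALB and PPEF2, the other genes that passed as lower, lay at background and differed by -0.0046 and -0.0015. The count of neighbours higher fell to 4 when replicate 2 or replicate 3 of either line was omitted, and to 5 without replicate 1 of either. DCK, G3BP2 and SDAD1 lost their call in at least 1 of these omissions. Averaged over all its probe sets G3BP2 differed by -0.078 and did not pass. SDAD1 differed by 0.0059 with _x_at and _s_at probe sets omitted, and did not pass under trend and robust moderation, without dim probe sets or by the methods' t-test.

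**Figure D2:**
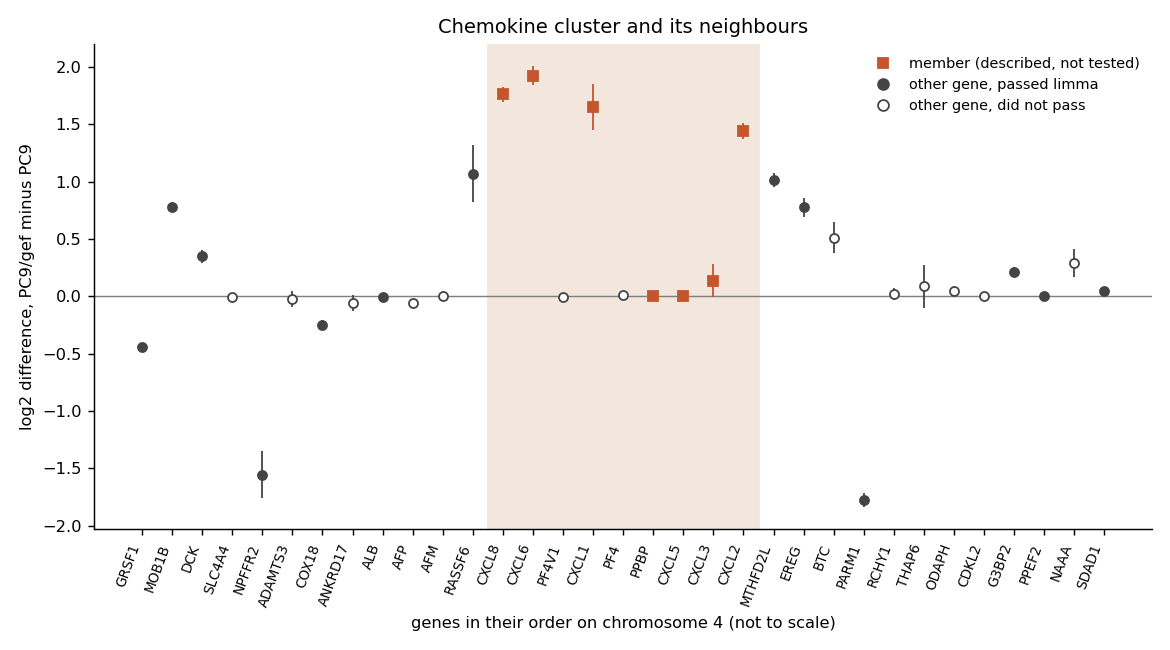
Log2 difference, PC9/gef minus PC9, with its standard error for the ligand cluster (shaded; squares are members) and the 12 nearest genes with a probe set on each side, in their order on chromosome 4. Filled circles passed limma and open circles did not; the members CXCL8, CXCL6, CXCL1 and CXCL2 stand between 1.44 and 1.92, with genes near 0 between them.

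The signalling that is known to induce these ligands was followed in a list of 47 measured genes, from the interleukin-1 and tumour necrosis factor receptors to NF-kappaB and AP-1. In limma 14 rose and 12 were lower, 2 of the latter at background, beside 14.4% and 17.1% of all genes, and the list's median difference was -0.0024, beside -0.00065 over all genes that are not members. IL1A, encoding interleukin-1 alpha, stood at 2.72, 2.77 and 3.02 in PC9 and at 9.08, 9.04 and 9.08 in PC9/gef (log2 difference 6.23, adjusted p = 4.2e-05 in limma). IL1B, encoding interleukin-1 beta, stood at 6.52, 6.60 and 6.59 in PC9 and at 10.9, 11.0 and 10.9 in PC9/gef (log2 difference 4.36, adjusted p = 2.2e-05 in limma). These differences exceeded that of every member. TNFRSF1B, a receptor of tumour necrosis factor, fell by 1.64, and CEBPD, a transcription factor gene of acute inflammation, fell by 1.21. With _x_at and _s_at probe sets omitted, 9 genes were higher and 6 lower, and IL1A and CEBPD, then read from other probe sets, differed by 0.0013 and -0.011. Whether those other probe sets detect these mRNAs was not tested. Omitting any 1 array lowered both counts, to between 9 and 11 higher and between 7 and 11 lower. The count higher was 9 without replicate 3 of either line, and the count lower was 7 without PC9 replicate 1.

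Other genes that NF-kappaB is known to induce did not move one way. Of 36 measured, 11 rose and 7 fell in limma, beside 14.4% and 17.1% of all genes, 9 others lay at background, and the median difference was 0.010. IL11, a cytokine of the interleukin-6 family, rose 5.61-fold from 6.86, 6.98 and 6.91 to 9.37, 9.36 and 9.48 (adjusted p = 7.8e-05 in limma). LTB, encoding lymphotoxin beta, rose 2.75-fold (adjusted p = 0.00215 in limma), although without probe sets named _x_at or _s_at it differed by -0.0021. S100A8, encoding a calcium-binding protein of inflamed epithelium and neutrophils, stood at 6.93, 7.06 and 7.13 in PC9 and at 2.74, 3.32 and 3.30 in PC9/gef (fell by 3.92, adjusted p = 0.000432 in limma). With _x_at and _s_at probe sets omitted, S100A8 was read at background and differed by -0.0016. ICAM1, the adhesion molecule that neutrophils bind, fell by 1.74 (adjusted p = 0.00131 in limma).

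Among 23 measured genes of proteins that bind, protect or break down such short-lived mRNAs, 9 rose and 8 fell in limma, beside 14.4% and 17.1% of all genes. None of the 23 lay at background in both lines, so shares over all genes, many of them at background, are a low base here. None changed over 2-fold, beside 301 higher and 264 lower of the 19766 genes that are not members. The median difference was -0.066. ZFP36, encoding the decay factor tristetraprolin, rose by 0.44, and XRN1, an exonuclease gene, rose by 0.76. DCP1A, of the decapping complex, fell by 0.78, and MAPKAPK3, a kinase gene of the p38 route, fell by 0.52. Both counts fell whichever array was omitted. Without PC9 replicates 1, 2 and 3 in turn, 4, 5 and 4 genes were higher and 6, 6 and 7 lower. Without PC9/gef replicates 1, 2 and 3 in turn, 6, 7 and 6 were higher and 5, 7 and 5 lower. Each of these fits had 1 array fewer, so the falls do not show that any single array carried the counts.

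Of 50 measured genes that carry or end the signal of CXCR1 and CXCR2, 8 rose and 7 were lower in limma, beside 14.4% and 17.1% of all genes. None changed over 2-fold, beside 301 higher and 264 lower of the 19766 genes that are not members. GNAI2, encoding an inhibitory G protein subunit, fell by 0.47, whereas GNAI1 and GNAI3, encoding other such subunits, differed by 0.14 and 0.076 and did not pass. ARRB1, encoding an arrestin that ends the signal of these receptors, fell by 0.55. RHOA, a small GTPase gene, fell by 0.57, and GNG12, a G protein gamma subunit gene, rose by 0.56. Without PC9/gef replicate 2 the count lower was 11. Among 18 other CXC chemokines, receptors and atypical receptors, 16 lay at background. ACKR3, an atypical receptor of CXCL12, rose by 0.26 (adjusted p = 0.00205 in limma). CXCR4 and CXCR6 passed as lower at background, with differences of -0.0028 and -0.011.

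**Figure D3:**
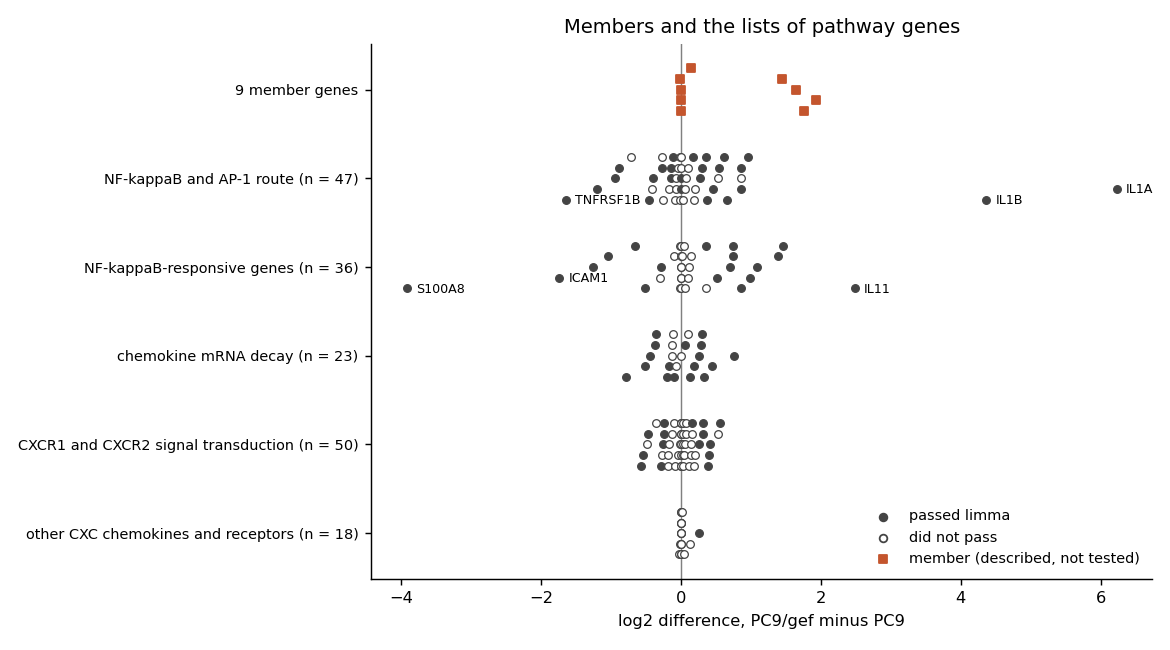
Log2 difference, PC9/gef minus PC9, of the 9 member genes (squares) and of the measured genes of 5 lists; filled circles passed limma and open circles did not, and the vertical offset within a list carries no value. The lists spread to both sides of 0, with IL1A at 6.23 and S100A8 at -3.92 at the ends.

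The genes whose values over the 6 arrays ran closest to those of CXCL8, after the mean of each gene was removed, were TPST1, AOX1, HMGN2P46, BEX2 and MOK, of 19774 compared. Their root mean square distances were 0.0468, 0.0514, 0.0738, 0.0767 and 0.0780 on the log2 scale. TPST1, an enzyme gene for tyrosine sulfation, stood at 7.15, 7.23 and 7.15 in PC9 and at 8.89, 8.92 and 8.92 in PC9/gef. Within the family CXCL6 ranked 21, CXCL2 ranked 39, CXCL1 ranked 117 and CXCL3 ranked 3836. The 6 arrays are 3 of each line, and no p is given for this likeness. The distance depends largely on the size of the difference between the lines. That difference was 1.64 to 1.86 for the 5 closest genes and 1.76 for CXCL8. The ranks therefore do not show that genes vary together within a line.

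**Figure D4:**
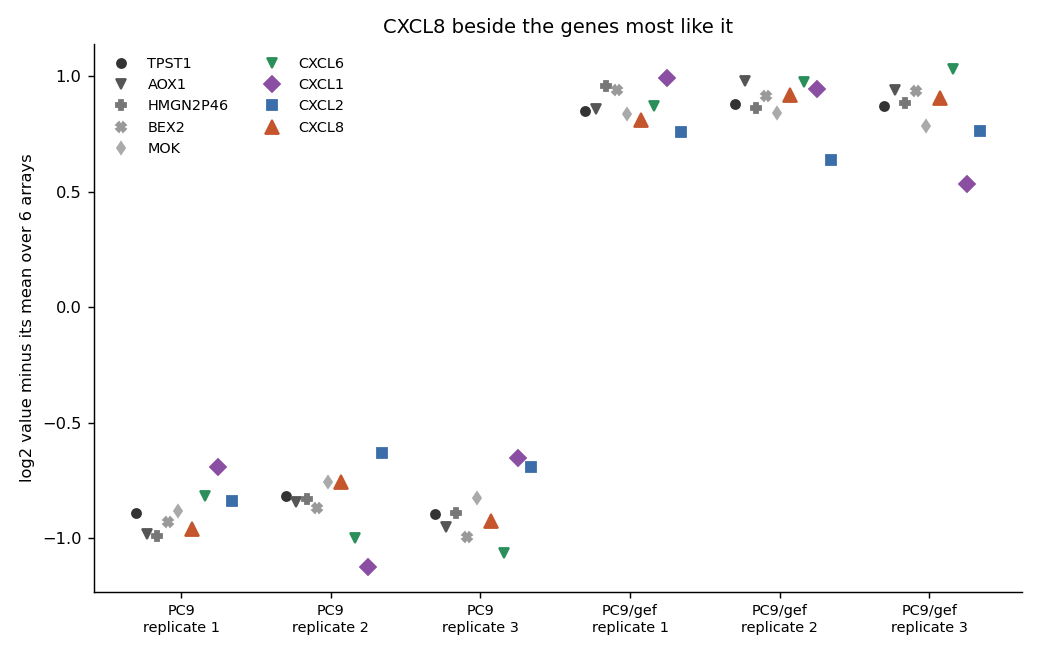
Log2 value minus the gene's mean over 6 arrays, for CXCL8 (large triangles), the 5 genes closest to it (grey) and CXCL6, CXCL1 and CXCL2, on each array; points are set side by side so that they can be told apart. CXCL1 strays most from CXCL8, on PC9 replicate 2 and PC9/gef replicate 3.

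The identity of the cells was read from markers. EPCAM, KRT8, KRT18 and KRT19 were high in both lines, with array values from 13.6 to 15.2, while NKX2-1 and NAPSA, which mark lung adenocarcinoma, lay at background. SFTPB, another gene of the lung epithelial list, lay above background, with means of 4.31 in PC9 and 4.33 in PC9/gef, and did not pass. Of the 12 epithelial and mesenchymal markers, 3 rose and 4 were lower in limma, beside 14.4% and 17.1% of all genes. Those higher were VIM (vimentin) by 0.91, KRT7 by 0.29 and CDH1 (E-cadherin) by 0.19. KRT8, KRT18 and MUC1 fell by 0.33, 0.10 and 0.26, and NKX2-1 passed as lower at background. CDH2 (N-cadherin) differed by 0.036 and did not pass. MUC1 lost its call when PC9/gef replicate 3, PC9 replicate 1 or PC9 replicate 2 was omitted, and KRT7 differed by -0.00016 with _x_at and _s_at probe sets omitted. Of 10 measured leukocyte markers, 8 lay at background in both lines, among them PTPRC, CSF3R, FCGR3B, MPO, ELANE and CEACAM8. ITGAM and LCP1 rose by 1.16 and 1.07, and the mean of the list ran from 3.217 to 3.223 on PC9 arrays and from 3.40 to 3.50 on PC9/gef arrays. The adjusted p of ITGAM was 0.043 in limma, and its call was lost without any 1 array other than PC9/gef replicate 2. With _x_at and _s_at probe sets omitted, ITGAM differed by 0.018 (adjusted p = 0.461 in limma).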

How the data were processed

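RNA of 3 PC9 and 3 PC9/gef samples was measured on Affymetrix arrays. The values deposited by the authors are log2 values per probe set, corrected for background and normalized. The methods name GC-RMA and GeneSpring GX, and the submitters' processing notes name RMA, so which made the table is not settled. Both compress dim values. Arrays of a line correlated at 0.999 and no further scaling was applied. Depth does not apply to arrays, and their number limits the precision.

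After 62 controls were left out, 54613 probe sets were fitted in limma 3.58.1 under R 4.3.3 (trend and robust off) with cell line as the only term and Benjamini-Hochberg adjustment. Each of 19775 genes was read in that fit from its probe set with the highest mean, with adjustment over those genes. The fit was tested on simulated data with independent normal noise. Changes were planted only in probe sets above background, so the test did not cover the recovery of changes at background. Genes at background in 1 line are given a fold against the background level. Starts were read from a RefSeq table on GRCh38.p14, and windows were aligned with Biopython 1.88. Figures used matplotlib 3.10.9 under Python 3.11.15.

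The members and lists were chosen with earlier results of these data known. Named were all members, up to 4 called genes with the largest change per list, called neighbours, the markers, and the 5 genes most like CXCL8. CXCR4, CXCR6, PF4 and PF4V1 were named after their values were seen. Alternatives varied the normalization (quantile, or centred on medians), the moderation (trend and robust), the background level, the start window and the test (the methods' t-test). Others dropped dim probe sets, dropped those whose names end in _x_at or _s_at, averaged a gene's probe sets, added the replicate number as a block, or omitted each array in turn.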

Additional observations from a re-analysis of the deposited data

How the results depend on the processing

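Of 278 recomputed values, 239 kept their direction and their side of the threshold, or for counts stayed within 1.5 times. Part of this was fixed beforehand, so the number is no measure of robustness. The array medians were already equal, and quantile normalization and median centring left the log2 differences of the members as they were. Moderation, the block, the t-test and dropping dim probe sets can change a p but not a log2 difference. CXCL8, CXCL6, CXCL1 and CXCL2 stayed higher in PC9/gef under every alternative but one: read without probe sets named _x_at or _s_at, CXCL2 differed by -0.0031, while CXCL8 then had no probe set left. Leaving out each array in turn, CXCL3 ranged from -0.010 to 0.219. The count of members above background fell from 5 to 1 with the 99th percentile of olfactory receptor probe sets as the level, and rose to 6, CXCR2 being added, with pseudogenes left out (a level of 2.61), an alternative chosen after seeing the data. Members lower numbered 2 under trend and robust moderation, 1 under the methods' t-test and 0 to 1 when an array was left out.

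No pairing by replicate number was seen: deviations of same-numbered arrays correlated at -0.026, 0.016 and 0.048, and those of differently numbered arrays at -0.067 to 0.052. The labels do not say whether samples were processed in pairs. With the replicate number as a block, 4 member probe sets passed as higher, and CXCL1, at an unchanged 1.65, no longer passed, nor did GNAI2, DCP1A, ITGAM, NPFFR2, RASSF6, EREG and MUC1 among the genes named. The block gave 3 genes lower for receptor signal transduction, 7 higher among NF-kappaB-responsive genes, 3 higher and 3 lower for mRNA decay, 0 lower among other CXC genes and 3 lower among neighbours.

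Without _x_at and _s_at probe sets, the NF-kappaB and AP-1 route had 9 higher and 6 lower, responsive genes 7 higher and mRNA decay 5 higher. Whether the probe sets then read detect the mRNA of each gene, LTB and KRT7 among them, was not tested. Averaging a gene's probe sets moved 20 of the 36 called genes named by over 1.5 times, among them IL1A to 3.12, MTHFD2L to 0.25 and RASSF6 to 0.36. It gave 5 higher for mRNA decay and 1 lower among other CXC genes. Those lower among other CXC genes numbered 7 under trend and robust moderation, 6 under the methods' t-test and 0 with dim probe sets left out. Leaving out each array, the counts ranged from 9 to 11 higher and 7 to 11 lower for the route, from 4 to 7 higher and 5 to 7 lower for mRNA decay, from 6 to 11 lower for receptor signal transduction, from 0 to 3 lower among other CXC genes and from 4 to 5 higher among neighbours. The cause was not tested.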

Other observations

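Genes other than the members were counted by the NF-kappaB-like letters GGNNTTTCC in the 250 bases before any of their starts, a count added after the members' starts had been seen. Of 1152 genes with 1 match or more, 17.5% were higher and 18.1% lower in PC9/gef in limma, beside 15.5% and 17.5% of 14223 genes without a match. Over 2-fold higher were 1.74% and 1.59%. Of the 50 genes with 2 matches or more, 9 were higher and 7 lower, and the only one over 2-fold was INHBA, an activin subunit gene, with a log2 difference of 1.42 (adjusted p = 9.08e-05 in limma).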
